A study of Mus musculus with 15 samples.

Results

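Most of the genes described here encode the proteasome, its regulators and its assembly factors. Psmc3ip, counted with them below, acts in homologous recombination instead. The set is every protein-coding gene whose symbol reads Psma, Psmb, Psmc, Psmd, Psme, Psmf or Psmg followed by a number, pseudogenes left out. There were 50 such genes among the 55416 gene identifiers of the deposited table. All 50 held at least 1 count, and 48 had enough counts to be tested.

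RNA was sequenced from neural precursor cells (NPCs, dividing cells able to become neurons or glia) grown from the hippocampus of female mice of 6 weeks. The study compared 3 stable lines, with 5 libraries each. Using the piggyBac transposon, each line received a cassette with a TRE3G promoter (switched on by doxycycline), the Tet-On 3G transactivator under an SV40 promoter and a puromycin resistance gene. In the Atf3 line the cassette carried the coding sequence of Atf3, in the Atf4 line that of Atf4, and in the control line neither. All 3 lines were treated alike: EGF and FGF were withdrawn to start differentiation, doxycycline was added at 100 ng/ml at the same time, and cells were collected at 10 h. There was 1 line per construct, so the transgene and the line cannot be told apart. Labels do not say whether the libraries of a line came from separate cultures, and p-values therefore measure only the spread between these libraries, which may be technical.

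The 26S proteasome degrades proteins tagged with ubiquitin. Its barrel, the 20S core, has outer rings of alpha subunits (Psma genes) that gate the entrance and inner rings of beta subunits (Psmb genes), among which Psmb5, Psmb6 and Psmb7 do the cutting. In immune cells, and in many cells under interferon, the cutting subunits can be exchanged for Psmb8, Psmb9 and Psmb10, which gives the immunoproteasome. The 19S cap recognises the ubiquitin tag, removes it and unfolds the protein with a ring of ATPases (Psmc genes) and a set of non-ATPase subunits (Psmd genes), while the Psme genes encode other caps. In neural precursors, proteasome activity is part of how short-lived cell cycle and fate regulators are removed.

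Library totals were 53.7 to 69.6 M counts. The Atf3 gene averaged 1941 ± 120 CPM (counts scaled to a common library size) in Atf3 libraries, 1.40 ± 0.306 in Atf4 libraries and 5.02 ± 4.10 in control libraries (SD, n = 5 each here and below). The Atf4 gene averaged 250 ± 16.5 CPM in Atf3 libraries, 153 ± 21.7 in Atf4 libraries and 83.2 ± 6.75 in control libraries, so the Atf3 line held more Atf4 transcript than the Atf4 line did. The cells carried neural precursor transcripts: Nes averaged 1018 ± 46.6 CPM in Atf3 libraries, 834 ± 127 in Atf4 libraries and 662 ± 32.1 in control libraries, and Sox2 averaged 224 ± 13.3 CPM in Atf3 libraries, 233 ± 11.4 in Atf4 libraries and 228 ± 7.50 in control libraries. Other precursor markers differed in direction: Fabp7 averaged 1228 CPM in Atf3 libraries, 882 in Atf4 libraries and 543 in control libraries, Vim 1148, 1360 and 1598, Hes5 1.04, 3.32 and 11.2, and Pax6 37.1, 40.2 and 36.5 in Atf3, Atf4 and control libraries. Summed levels of 4 neuron markers averaged 1461 CPM in Atf3 libraries, 1438 in Atf4 libraries and 1765 in control libraries, and 4 astrocyte markers averaged 107 CPM in Atf3 libraries, 116 in Atf4 libraries and 243 in control libraries. Endothelial markers, 3 of 4 of them under 1 CPM in every library, summed to 10.2 CPM in Atf3 libraries, 16.7 in Atf4 libraries and 44.6 in control libraries. Nes, Fabp7, Vim, Hes5 and these 3 sums moved with the line, and their part in the proteasome results was not tested. In bulk RNA, fewer cells of a type and less RNA per cell cannot be told apart.

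In the Atf3 line most proteasome genes were expressed above the control line. Of the 48 tested genes, 38 (79.2%) rose and 4 (8.33%) fell in edgeR's quasi-likelihood test at an adjusted p under 0.05. Over all 18244 genes tested, 73.2% were called, 36.8% higher and 36.3% lower. Many proteasome genes are abundant. Of all tested genes with a mean level of 10 CPM or above, 83.3% were called, 51.8% higher and 31.5% lower. The median log2 fold change was 0.30 over the 48 tested proteasome genes, against -0.02 over all genes tested and 0.12 over genes of 10 CPM or above. For 37 of the 48 every Atf3 library lay above every control library, which held for 32.0% of all genes tested and 47.4% of those of 10 CPM or above. For 5 every Atf3 library lay below, which held for 28.7% and 27.5%.

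Changes were modest in size but alike from library to library. The summed level of all 50 genes was 5467 to 5645 CPM in Atf3 libraries, 4893 to 5251 in Atf4 libraries and 4504 to 4791 in control libraries. With TMM scaling the ranges of the 3 lines did not overlap, but with plain library totals those of the Atf3 and Atf4 lines did. These values depend on how libraries are scaled. With plain library totals in place of TMM scaling, 29 of the 48 tested genes rose and 5 fell in the Atf3 line. This alternative was added after seeing the data. It moved the median of all genes tested to -0.16 and that of the 48 proteasome genes to 0.16. Scaling shifts all genes by about the same amount, so the distance between these medians cannot show whether the result depends on it.

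**Figure D1:**
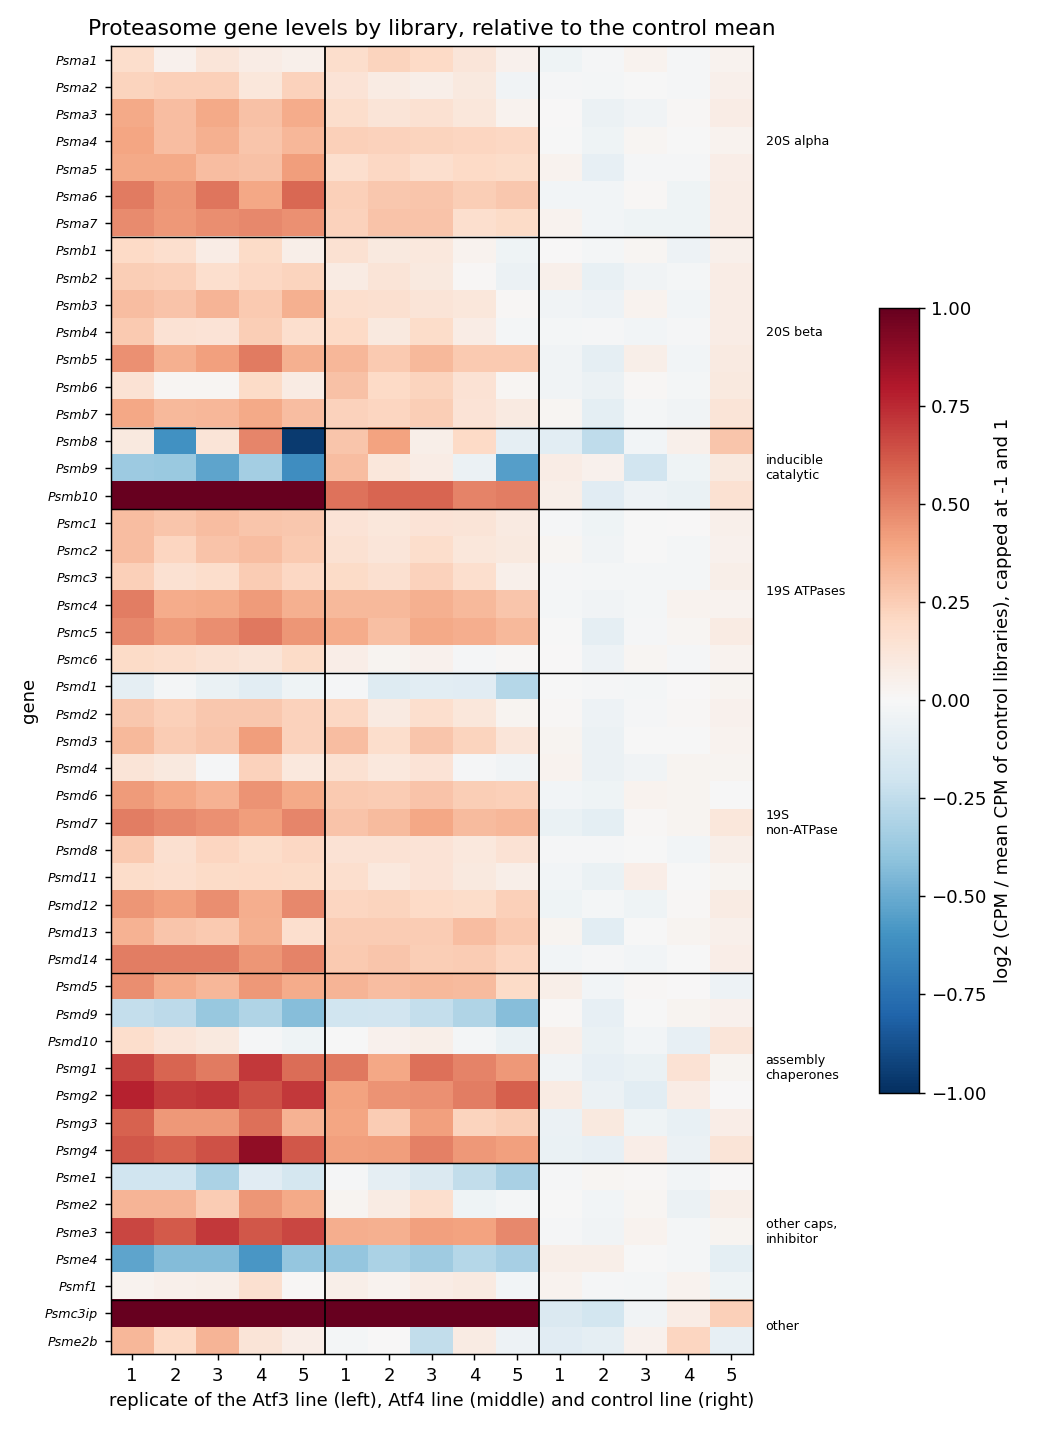
Level of each of the 48 tested proteasome genes (rows, grouped by role) in each library (columns), as log2 of CPM over the mean CPM of the control libraries, with values beyond -1 and 1 drawn at those limits. Red fills most rows in the Atf3 libraries and is paler in the Atf4 libraries, while Psmb9 (Atf3 line), Psmd9, Psme1 and Psme4 are blue.

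**Figure D2:**
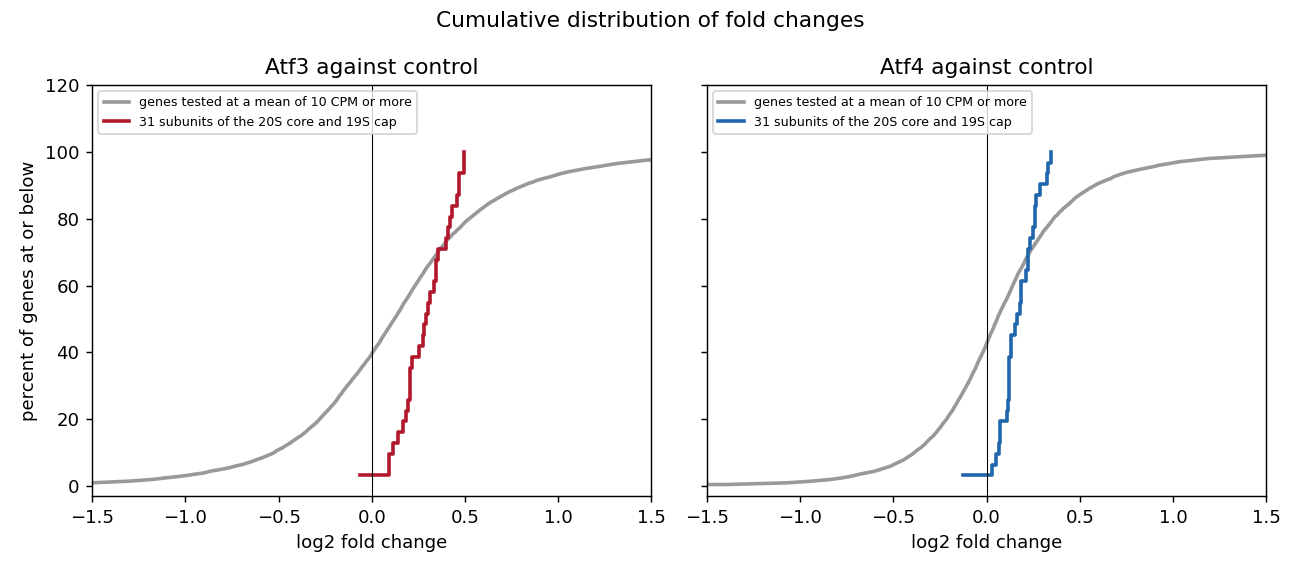
Cumulative distribution of log2 fold changes of the 31 subunits of the 20S core and 19S cap (coloured steps) and of the 9951 tested genes with a mean of 10 CPM or above (grey), for the Atf3 line against control on the left and the Atf4 line against control on the right. The subunits lie in a narrow band, from -0.06 to 0.50 in the Atf3 line and from -0.12 to 0.35 in the Atf4 line, inside a much wider grey curve; plain library totals turn Psma1, Psmb6 and Psmd4 below 0 in the Atf3 line and Psmc6 in the Atf4 line.

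Among the 14 constitutive subunits of the 20S core, 13 rose in the Atf3 line, with a median log2 fold change of 0.32. All 7 alpha subunits rose. The largest of these rises was in Psma6, at 0.49 ± 0.04 (adjusted p = 5.11e-10), followed by Psma7 at 0.46 ± 0.03 (adjusted p = 4.33e-10). Psma6 averaged 154 ± 8.06 CPM in Atf3 libraries, 131 ± 1.46 in Atf4 libraries and 110 ± 3.73 in control libraries. The smallest was Psma1, at 0.09 ± 0.04 (adjusted p = 0.0326), and it is the least certain. Its call was lost without Atf3 replicate 1 or 3 or without any 1 of the 5 control libraries (0.07 to 0.09). It was also lost with RLE scaling (adjusted p = 0.054), with DESeq2 (adjusted p = 0.0514) and with a filter of 1 CPM in 5 libraries (0.03). With plain library totals the direction of Psma1 turned to -0.04, and the call of Psma2 was lost (0.07). The summed level of the 14 core subunits was 1924 to 2008 CPM in Atf3 libraries, 1694 to 1852 in Atf4 libraries and 1560 to 1688 in control libraries.

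Of the 7 constitutive beta subunits 6 rose, with Psmb5 highest in fold and Psmb6 alone not called. With plain totals the calls of Psmb1 (0.003), Psmb2 (0.08) and Psmb4 (0.06) were lost. The call of Psmb1 was also lost with the 1 CPM filter (0.08). Psmb5 had 123, 114, 119, 128 and 115 CPM in Atf3 libraries, 113, 107, 112, 107 and 107 in Atf4 libraries and 87.3, 83.9, 93.2, 87.9 and 95.4 in control libraries. Psmb5, the chymotrypsin-like cutting subunit, was highest in every Atf3 library, lower in every Atf4 library and lowest in every control library. The step between the Atf3 and Atf4 lines depends on the scaling. With plain totals the log2 fold change of Psmb5 in the Atf4 line against the Atf3 line was -0.03 (adjusted p = 0.552), not called. Against control the log2 fold change of Psmb5 was 0.42 ± 0.04 (adjusted p = 2.4e-08) in the Atf3 line and 0.29 ± 0.04 (adjusted p = 5.5e-06) in the Atf4 line.

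Psmb6 had 133, 123, 123, 139 and 128 CPM in Atf3 libraries, 148, 139, 141, 134 and 123 in Atf4 libraries and 118, 116, 122, 119 and 129 in control libraries. Psmb6, the caspase-like subunit, overlapped between all 3 lines. Against control it had a log2 fold change of 0.09 ± 0.05 (adjusted p = 0.091) in the Atf3 line, with a 95% interval of -0.01 to 0.20 and a value of -0.05 under plain totals but a call with no filter on low counts (0.12), and 0.18 ± 0.05 (adjusted p = 0.00337) in the Atf4 line, where it was called.

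Psmb7 had 128, 123, 123, 127 and 122 CPM in Atf3 libraries, 115, 114, 116, 108 and 104 in Atf4 libraries and 99.4, 91.6, 96.7, 95.7 and 107 in control libraries. Psmb7, the trypsin-like subunit, was higher in every Atf3 library than in any control library, while the highest control library reached into the Atf4 range. Against control its log2 fold change was 0.35 ± 0.04 (adjusted p = 4.13e-07) in the Atf3 line and 0.18 ± 0.04 (adjusted p = 0.000739) in the Atf4 line. Of the exon bases of Psmb7 11.8% are shared with Nek6 on the other strand, and the library kit does not mark strand.

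The inducible cutting subunits did not move together. Psmb10 had 23.0, 22.4, 22.1, 24.4 and 22.2 CPM in Atf3 libraries, 16.1, 16.5, 16.6, 15.6 and 15.8 in Atf4 libraries and 11.5, 10.2, 10.7, 10.6 and 12.3 in control libraries. Psmb10 (chr8:105935735-105938444 of GRCm38, minus strand) was highest in every Atf3 library, lower in every Atf4 library and lowest in every control library. The fit gave it a log2 fold change of 1.04 ± 0.05 (adjusted p = 2.2e-12) in the Atf3 line, 2.06-fold, and 0.54 ± 0.05 (adjusted p = 3.62e-08) in the Atf4 line, 1.46-fold. It was the largest rise among proteasome subunits in both lines. Plain totals gave 0.91 in the Atf3 line.

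Psmb9 had 4.95, 4.93, 4.41, 5.03 and 4.14 CPM in Atf3 libraries, 7.87, 6.88, 6.68, 6.11 and 4.34 in Atf4 libraries and 6.70, 6.57, 5.57, 6.19 and 6.79 in control libraries. Psmb9 (chr17:34181987-34187764, minus strand), the inducible partner of Psmb6, lay lower in every Atf3 library than in any control library, while Atf4 libraries spread across both. The log2 fold change was -0.44 ± 0.12 (adjusted p = 0.00242) in the Atf3 line and 0.01 ± 0.11 (adjusted p = 0.966) in the Atf4 line, with a 95% interval of -0.24 to 0.26, and the sign of this last value changed with several settings, plain totals among them. Psmb9 shares 5.79% of its exon bases with Tap1 on the other strand, a transporter gene with a log2 fold change of 0.22 ± 0.08 (adjusted p = 0.0141) in the Atf3 line.

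Psmb8 had 0.980, 0.600, 1.00, 1.28 and 0.471 CPM in Atf3 libraries, 1.11, 1.21, 0.955, 1.05 and 0.862 in Atf4 libraries and 0.851, 0.770, 0.896, 0.949 and 1.11 in control libraries. Psmb8 (chr17:34197721-34201454, plus strand), the inducible partner of Psmb5, stayed near 1 CPM and overlapped between all lines. Its log2 fold change was -0.09 ± 0.21 (adjusted p = 0.71) in the Atf3 line, with a 95% interval of -0.55 to 0.37, and 0.18 ± 0.21 (adjusted p = 0.465) in the Atf4 line, with one of -0.27 to 0.63. Without Atf3 replicate 2 or 5 the value in the Atf3 line was 0.02 or 0.08, so that even its sign rests on single libraries. Of the exon bases of Psmb8 14.7% are shared with Gm20496 on the other strand.

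Set per kilobase of the principal transcript, the inducible subunits were scarce beside their constitutive partners in all lines. Psmb10 reached 16.2 ± 0.441% of the per-kilobase level of Psmb7 in Atf3 libraries, 12.8 ± 0.385% in Atf4 libraries and 9.96 ± 0.218% in control libraries. Psmb9 reached 2.15 ± 0.166% of Psmb6 in Atf3 libraries, 2.73 ± 0.394% in Atf4 libraries and 3.11 ± 0.268% in control libraries. Psmb8 reached 0.395 ± 0.133% of Psmb5 in Atf3 libraries, 0.524 ± 0.0706% in Atf4 libraries and 0.563 ± 0.0559% in control libraries. The ratio of Psmb10 was the only one of these 3 that was higher in Atf3 libraries than in control libraries. Microglia, which express the immunoproteasome, were looked for with 6 marker genes: 5 of them stayed under 1 CPM in every library, and their sum was 1.13 to 1.47 CPM in Atf3 libraries, 0.646 to 0.957 in Atf4 libraries and 0.415 to 0.690 in control libraries, most of it P2ry12. The sum moved in the order of Psmb10, and its part in that result was not tested.

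**Figure D3:**
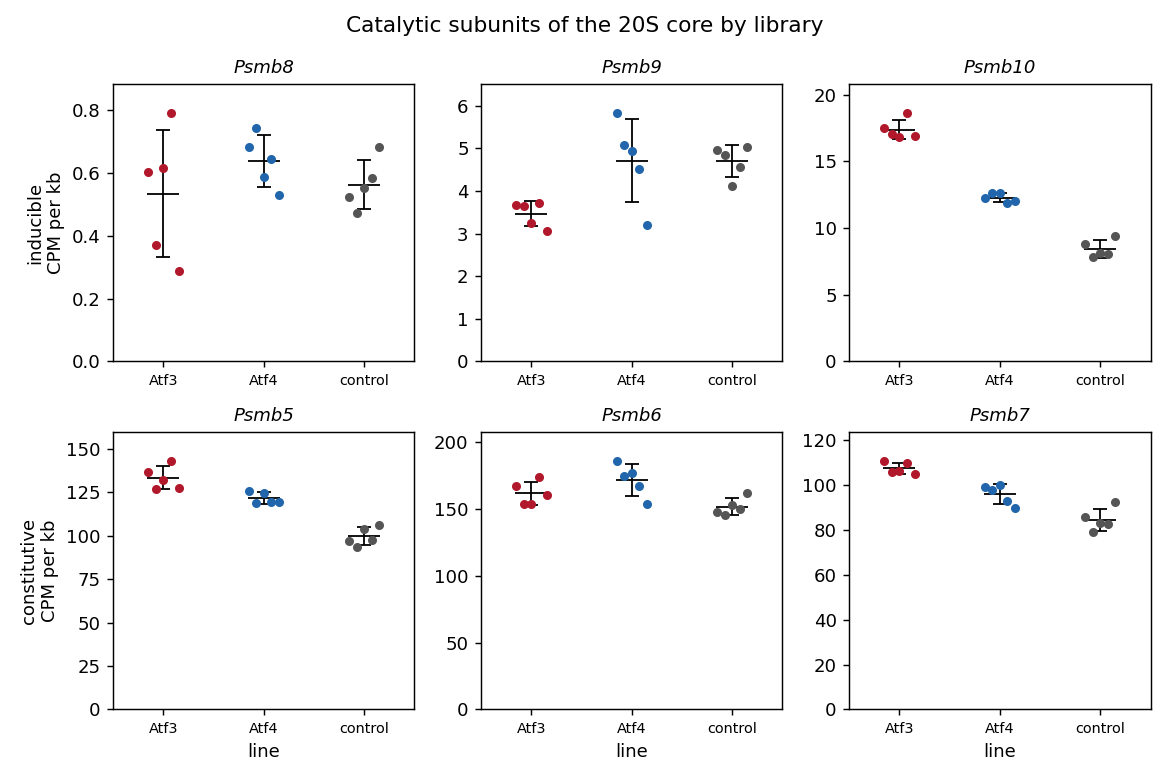
CPM per kilobase of principal transcript for the 3 inducible cutting subunits (top) and their constitutive partners (bottom), 1 point per library, with the mean and SD of the 5 libraries of each line. Psmb10 averages 17.4 in Atf3 libraries, 12.3 in Atf4 libraries and 8.43 in control libraries, whereas Psmb9 is lowest in Atf3 libraries and Psmb8 overlaps in all lines.

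The subunits of the 20S core were not equally abundant as transcripts. Per kilobase, the beta ring ran from 99.9 for Psmb2 to 170 for Psmb4 in Atf3 libraries, from 89.1 for Psmb2 to 172 for Psmb6 in Atf4 libraries and from 84.6 for Psmb7 to 152 for Psmb6 in control libraries. The alpha ring spread wider, from Psma2 at 47.6 to Psma7 at 171 in Atf3 libraries, with the same pair at 43.2 and 146 in Atf4 libraries and at 41.2 and 124 in control libraries. These are levels per kilobase of one transcript per gene, and another choice of transcript moves them.

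Among the 17 subunits of the 19S cap, 16 rose in the Atf3 line, with a median log2 fold change of 0.28. The sum of the 17 was 2897 to 2980 CPM in Atf3 libraries, 2604 to 2792 in Atf4 libraries and 2381 to 2535 in control libraries. All 6 ATPases rose, from Psmc6 at 0.17 ± 0.03 (adjusted p = 2.47e-05) to Psmc5 at 0.47 ± 0.03 (adjusted p = 3.64e-10); the call of Psmc6 was lost with plain totals (0.03), as was that of Psmc3 (0.07). Of the 11 non-ATPases 10 rose, and Psmd14 rose most. The call of Psmd11 was lost with plain totals (0.05). Psmd14 had 138, 137, 138, 130 and 136 CPM in Atf3 libraries, 115, 117, 114, 115 and 111 in Atf4 libraries and 94.3, 95.7, 94.7, 95.9 and 101 in control libraries. Psmd14, the deubiquitinase that strips the ubiquitin chain, was highest in every Atf3 library, lower in every Atf4 library and lowest in every control library. Its log2 fold change against control was 0.50 ± 0.03 (adjusted p = 2.57e-11) in the Atf3 line and 0.25 ± 0.03 (adjusted p = 6.35e-07) in the Atf4 line.

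The exception in the cap was Psmd1, the scaffold to which the ubiquitin receptor Adrm1 docks. It averaged 299 ± 6.92 CPM in Atf3 libraries, 286 ± 19.2 in Atf4 libraries and 312 ± 3.90 in control libraries. Against control it had a log2 fold change of -0.06 ± 0.04 (adjusted p = 0.143) in the Atf3 line and -0.12 ± 0.04 (adjusted p = 0.00943) in the Atf4 line. In the Atf3 line every library lay below every control library, and Psmd1 was called with plain totals (-0.20), with the 1 CPM filter (-0.12) and with only these lines fitted (-0.06). Atf4 libraries overlapped the control range, and the call was lost with no filter on low counts (adjusted p = 0.0542). Psmd2, the other large scaffold, had 0.25 ± 0.03 (adjusted p = 1.38e-06) in the Atf3 line. Psmd4, a ubiquitin receptor, had 0.11 ± 0.04 (adjusted p = 0.032). This call was lost without Atf3 replicate 1 or 4 or without any 1 control library (0.08 to 0.11). It was also lost with the 1 CPM filter (0.05), and plain totals gave -0.03.

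All 4 assembly chaperones of the core rose in the Atf3 line, and 3 of them rose by more on the log2 scale than any constitutive subunit of the core. Psmg1 and Psmg2, which pair to assemble the alpha ring, had log2 fold changes in the Atf3 line of 0.61 ± 0.05 (adjusted p = 4.77e-09) and 0.71 ± 0.05 (adjusted p = 8.51e-11). Psmg3 and Psmg4, the other pair, had 0.47 ± 0.06 (adjusted p = 1.61e-06) and 0.68 ± 0.06 (adjusted p = 3.58e-09). Psmg2 had 41.8, 39.8, 40.3, 38.2 and 40.0 CPM in Atf3 libraries, 32.4, 33.4, 33.6, 35.0 and 37.0 in Atf4 libraries and 25.9, 23.5, 22.7, 25.7 and 24.6 in control libraries. The 3 lines did not overlap in Psmg2, with Atf3 libraries highest and control libraries lowest, though with plain totals Atf3 and Atf4 libraries overlapped.

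The chaperones of the ATPase ring divided. Psmd5 rose in the Atf3 line, at 0.40 ± 0.04 (adjusted p = 1.43e-08), and Psmd10, also known as gankyrin, was not called, at 0.07 ± 0.05 (adjusted p = 0.221), with -0.07 under plain totals. Psmd9 had 43.6, 42.7, 39.4, 41.5 and 38.1 CPM in Atf3 libraries, 44.7, 44.9, 43.5, 41.7 and 38.2 in Atf4 libraries and 51.7, 48.5, 51.2, 52.4 and 52.7 in control libraries. Psmd9 was lower in every Atf3 and every Atf4 library than in any control library, while Atf3 and Atf4 libraries overlapped. The fit gave it a log2 fold change of -0.32 ± 0.05 (adjusted p = 6.64e-06) in the Atf3 line and -0.27 ± 0.05 (adjusted p = 7.72e-05) in the Atf4 line. Of its exon bases 25.5% are shared with the long noncoding RNA Gm26745 on the other strand, and reads of the shared bases cannot be told apart in these libraries.

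The caps that can replace the 19S particle went opposite ways. Psme3 had 140, 135, 144, 136 and 140 CPM in Atf3 libraries, 114, 113, 117, 117 and 124 in Atf4 libraries and 87.5, 86.5, 90.7, 87.3 and 89.9 in control libraries. Psme3, which forms the nuclear PA28 gamma ring, was highest in every Atf3 library, lower in every Atf4 library and lowest in every control library. The log2 fold change was 0.66 ± 0.03 (adjusted p = 1.99e-12) in the Atf3 line, 1.57-fold, and 0.40 ± 0.03 (adjusted p = 3.15e-09) in the Atf4 line, 1.32-fold.

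Psme4 had 104, 111, 111, 100 and 114 CPM in Atf3 libraries, 114, 120, 117, 123 and 119 in Atf4 libraries and 156, 156, 149, 147 and 140 in control libraries. Psme4 encodes PA200, a single-chain nuclear activator, and its level was lower in every Atf3 and Atf4 library than in any control library. Its log2 fold change was -0.47 ± 0.04 (adjusted p = 4.35e-09) in the Atf3 line and -0.34 ± 0.04 (adjusted p = 7.55e-07) in the Atf4 line. Among the 48 tested genes it had the largest fall in both lines.

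Psme1 and Psme2 encode the alpha and beta chains of the interferon-inducible PA28 ring and lie on chromosome 14, at chr14:55578123-55581529 and chr14:55587441-55591113. Psme1 had 33.3, 33.5, 30.9, 35.5 and 34.0 CPM in Atf3 libraries, 38.1, 36.0, 34.7, 32.4 and 30.6 in Atf4 libraries and 38.1, 38.9, 38.8, 37.6 and 38.5 in control libraries. Psme2 had 45.6, 45.7, 43.0, 49.0 and 46.8 CPM in Atf3 libraries, 36.7, 38.1, 40.4, 34.9 and 35.6 in Atf4 libraries and 36.0, 35.4, 36.6, 34.6 and 37.5 in control libraries. Every Atf3 library lay below the control range in Psme1 and above it in Psme2, while Atf4 libraries overlapped the control range in both. In the Atf3 line the log2 fold change was -0.20 ± 0.05 (adjusted p = 0.00188) for Psme1 and 0.35 ± 0.04 (adjusted p = 7.52e-07) for Psme2. In the Atf4 line it was -0.16 ± 0.05 (adjusted p = 0.0116) for Psme1 and 0.04 ± 0.04 (adjusted p = 0.394) for Psme2.

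Psmf1 had 39.0, 39.4, 39.4, 42.3 and 38.3 CPM in Atf3 libraries, 39.6, 38.9, 39.9, 40.4 and 37.2 in Atf4 libraries and 38.9, 37.6, 37.3, 39.0 and 36.9 in control libraries. Psmf1, the inhibitor PI31, overlapped between all lines. Against control it had a log2 fold change of 0.06 ± 0.04 (adjusted p = 0.119) in the Atf3 line, with a 95% interval of -0.01 to 0.14, and 0.05 ± 0.04 (adjusted p = 0.285) in the Atf4 line, with one of -0.03 to 0.12; the first turned to -0.07 with plain totals.

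**Figure D4:**
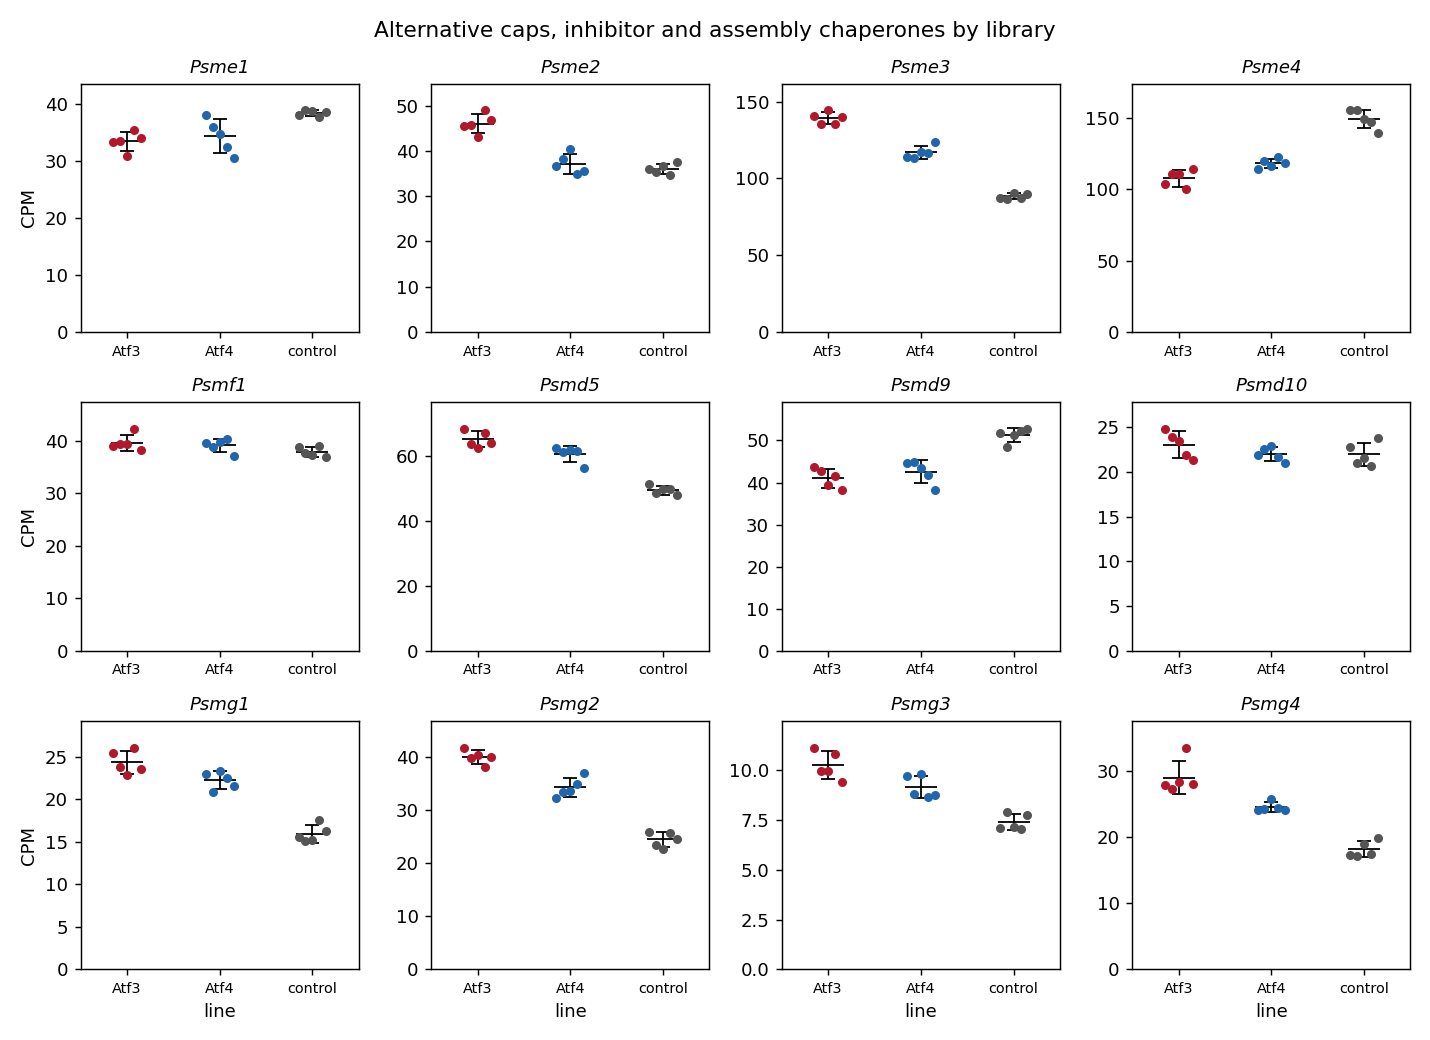
CPM by library of the alternative caps (Psme1 to Psme4), the inhibitor Psmf1, the ATPase ring chaperones (Psmd5, Psmd9, Psmd10) and the core chaperones (Psmg1 to Psmg4), 1 point per library with the mean and SD of each line of 5. Psme3 and the 4 Psmg genes have their highest mean in Atf3 and their lowest in control libraries, but Atf3 and Atf4 libraries overlap in Psmg1 and Psmg3. Psme4 and Psmd9 are highest in control libraries, and Psmf1 and Psmd10 overlap, with a sign in the Atf3 line that plain library totals turn.

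Of the genes the symbol pattern takes in, 4 stand apart from the particle of these cells. Psmc3ip had 20.5, 19.3, 18.7, 19.8 and 20.1 CPM in Atf3 libraries, 19.3, 20.5, 18.3, 19.5 and 19.3 in Atf4 libraries and 7.88, 7.68, 8.49, 9.17 and 10.3 in control libraries. Psmc3ip is named for binding Psmc3 but acts in homologous recombination, and it showed the largest rise of the 48: all Atf3 and Atf4 libraries lay above all control libraries. The fit gave it a log2 fold change of 1.18 ± 0.07 (adjusted p = 1.16e-11) in the Atf3 line and 1.16 ± 0.07 (adjusted p = 4.17e-11) in the Atf4 line, and 21.2% of its exon bases are shared with Mlx on the other strand. Psme2b had 2.00, 1.82, 2.00, 1.73 and 1.66 CPM in Atf3 libraries, 1.56, 1.59, 1.34, 1.68 and 1.53 in Atf4 libraries and 1.46, 1.49, 1.63, 1.84 and 1.50 in control libraries. Psme2b is a single-exon near copy of Psme2, so its reads are uncertain, and its libraries overlapped between all lines. The log2 fold change was 0.21 ± 0.10 (adjusted p = 0.0677) in the Atf3 line, called without Atf3 replicate 5 or control replicate 4 (up to 0.26), and -0.04 ± 0.10 (adjusted p = 0.738) in the Atf4 line. Psma8, the alpha subunit of sperm precursors, held at most 1 count in a library and Psmb11, the beta subunit of the thymus, at most 14. Neither was tested.

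In the Atf4 line the same families were set against the same 5 control libraries, so the 2 comparisons with control are not independent. Of the 48 tested genes 33 rose, 4 fell and 11 were not called. Over all genes tested 61.6% were called in this comparison, 31.9% higher and 29.7% lower, and of genes of 10 CPM or above 73.6% were called, 44.0% higher and 29.6% lower. The median log2 fold change was 0.17 over the 48 genes, against -0.0008 over all genes tested and 0.06 over genes of 10 CPM or above. Every Atf4 library lay above every control library for 25 of the 48, which held for 26.1% of all genes tested and 38.1% of those of 10 CPM or above. It lay below for 2, Psmd9 and Psme4, against 21.8% and 23.9%.

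By role, 11 of the 14 core subunits rose in the Atf4 line, and Psma2, Psmb1 and Psmb2 were not called, at log2 fold changes of 0.07, 0.07 and 0.05. In the cap 14 of 17 rose, Psmd1 fell, and Psmc6 and Psmd4 were not called. The largest rises of cap genes were Psmc5 at 0.35 ± 0.03 (adjusted p = 5.06e-08) and Psmd7 at 0.33 ± 0.04 (adjusted p = 4.39e-07). All 4 core chaperones rose, led by Psmg2 at 0.48 ± 0.05 (adjusted p = 3.52e-08) and Psmg1 at 0.48 ± 0.05 (adjusted p = 2.42e-07). The 4 genes that fell were Psmd1, Psmd9, Psme1 and Psme4. Psmb4 had 0.11 ± 0.04 (adjusted p = 0.0264). This call was lost without any 1 of Atf4 replicates 1 to 4 or control replicates 1 to 4 (0.08 to 0.10). It was also lost with plain totals (0.07) or with the 1 CPM filter (0.08). Psmb3 had 0.12 ± 0.04 (adjusted p = 0.00811), lost without Atf4 replicate 2 (0.09) or with plain totals (0.08). Psma2 was called without Atf4 replicate 5 (0.08).

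**Figure D5:**
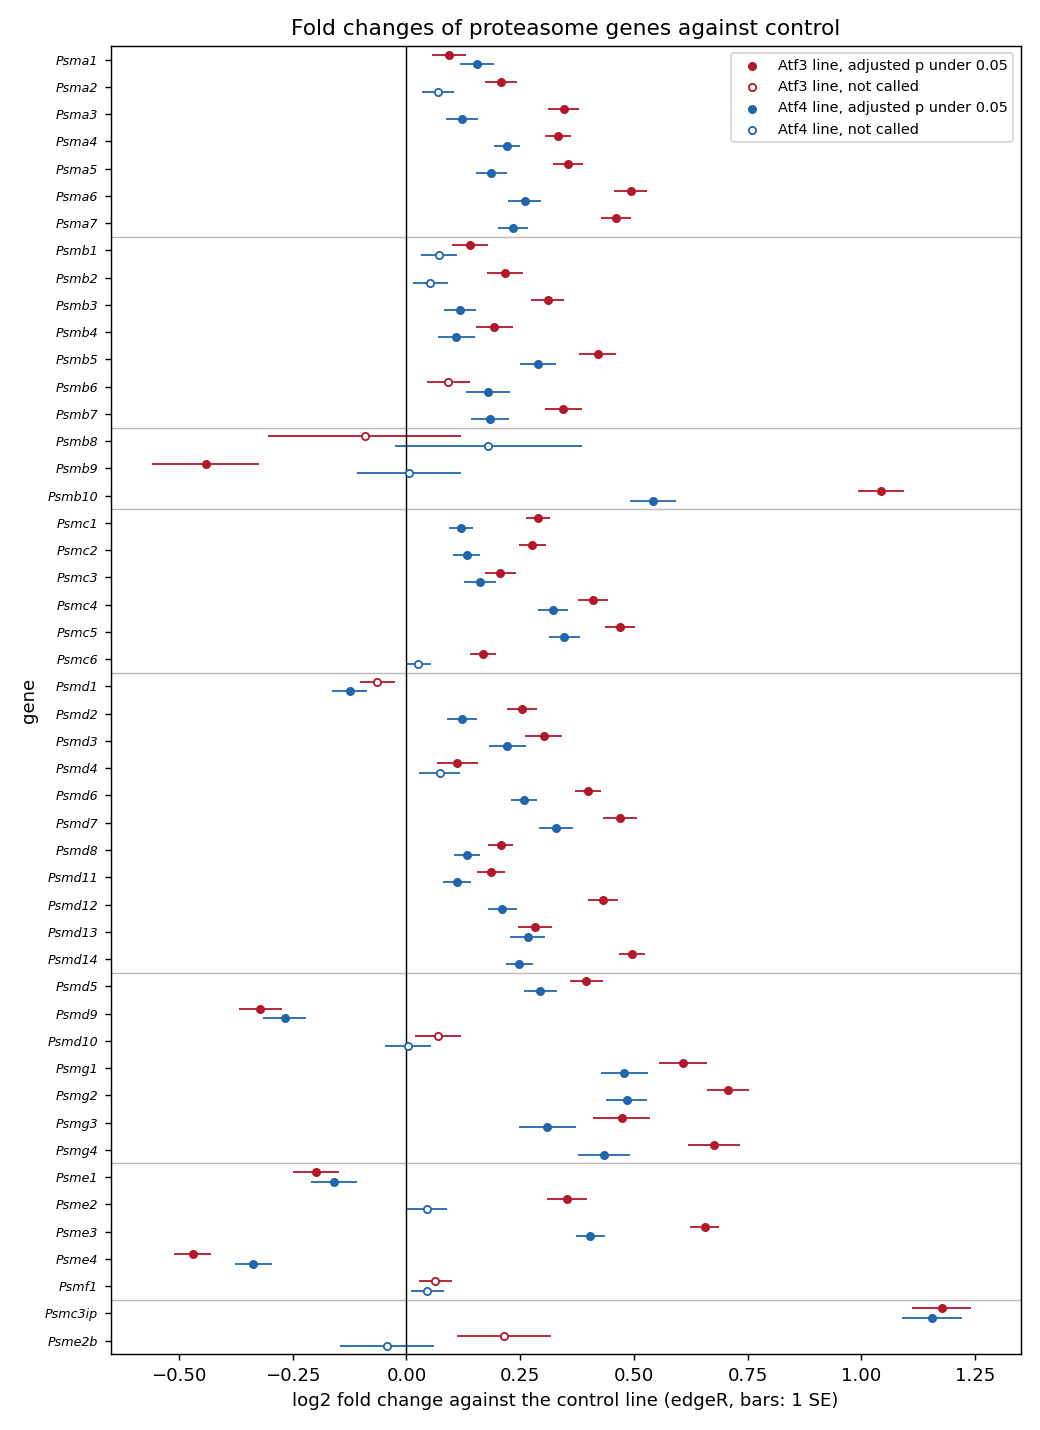
Log2 fold change against the control line for each tested gene in the Atf3 line (red, upper of each pair) and the Atf4 line (blue, lower), from the edgeR fit, with bars of 1 SE; filled points have an adjusted p under 0.05. Both lines were fitted against the same control libraries, and with plain library totals Psma1, Psmb6, Psmd4, Psmd10 and Psmf1 move below 0 in the Atf3 line and Psmb9, Psmc6 and Psmd10 in the Atf4 line.

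The Atf4 line was also set directly against the Atf3 line, which tests whether the lines differ. Of the 48 tested genes 28 were lower in the Atf4 line, 2 were higher and 18 were not called. Over all genes tested 43.6% were called in this comparison, 19.7% higher and 23.9% lower, and of genes of 10 CPM or above 54.2% were called, 17.8% higher and 36.4% lower. The median was -0.13 over the 48 genes, against 0.007 over all genes tested and -0.05 over genes of 10 CPM or above. With plain totals 12 were lower and 6 higher, the median of all genes tested moved to 0.11 and that of the 48 to -0.03, so the direction of the smaller differences depends on the scaling. Every Atf4 library lay below every Atf3 library for 26 of the 48, against 16.3% of all genes tested and 25.9% of those of 10 CPM or above, and above for none, against 9.52% and 8.65%.

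The core was lower in the Atf4 line in 10 of 14 genes and the cap in 11 of 17. Most of these calls depend on the scaling. With plain totals the core calls of Psma2, Psma4, Psma5, Psmb2, Psmb5 and Psmb7 were lost. So were the cap calls of Psmc2, Psmc4, Psmc5, Psmc6, Psmd2, Psmd6, Psmd7 and Psmd8. The largest difference was in Psmb10, at -0.50 ± 0.05 (adjusted p = 7.24e-07), and Psme2 followed at -0.31 ± 0.04 (adjusted p = 2.26e-05) and Psme3 at -0.25 ± 0.03 (adjusted p = 6.5e-06). Psmd14 had -0.25 ± 0.03 (adjusted p = 3.58e-06) and Psma6 -0.23 ± 0.04 (adjusted p = 5.16e-05). The genes higher in the Atf4 line were Psmb9, at 0.45 ± 0.12 (adjusted p = 0.00474), and Psme4, at 0.13 ± 0.04 (adjusted p = 0.0114), both of which the Atf3 line had below control. Psmc3ip differed by -0.02 ± 0.06 (adjusted p = 0.806), with a 95% interval of -0.16 to 0.11 and a value of 0.08 under plain totals. Psmb8 had 0.27 ± 0.21 (adjusted p = 0.311) and Psme2b -0.26 ± 0.10 (adjusted p = 0.0509).

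Many of these calls rest on single libraries or on the setting, and under plain totals the differences of Psmb4, Psmc4, Psmd5, Psmd8 and Psmd11 were not below 0. Psmc4 at -0.09 and Psmd8 at -0.07 were lost without any 1 Atf4 library. Psmc4 was also lost without Atf3 replicate 1 or 4 and Psmd8 without Atf3 replicate 1, 3 or 5. The fits that lost the call gave -0.09 to -0.06 for Psmc4 and -0.08 to -0.06 for Psmd8. Psmd5 at -0.10 and Psmg3 at -0.16 were lost without Atf3 replicate 1 or 4 or Atf4 replicate 2, 4 or 5 (-0.10 to -0.07 and -0.15 to -0.13). The calls of Psmc4 and Psmd8 were also lost with the replicate block (adjusted p = 0.0658 for Psmc4 and 0.0672 for Psmd8) and with RLE scaling (0.0504 for Psmc4 and 0.0578 for Psmd8), that of Psmg3 with the block (adjusted p = 0.0645), and all 4 with no filter, with the 1 CPM filter and with only these lines fitted. In turn Psma1 (0.09) and Psmb6 (0.13) were called without Atf4 replicate 5, which made 4 higher. Psmb4 (-0.10) and Psmd11 (-0.09) were called without Atf4 replicate 1, Psmg1 (up to -0.15) without Atf3 replicate 3 or 5 or Atf4 replicate 3 and also with the block, DESeq2 or limma-voom, and Psme2b (up to -0.30) without Atf3 replicate 4 or 5 or Atf4 replicate 4.

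Promoter sequence was read for the members from RefSeq (GRCm38.p6), as windows from 250 bases before to 50 after the annotated start; 42 of the 50 genes had one, in 45 windows. The core of the antioxidant response element, TGACNNNGC, which Nfe2l1 and Nfe2l2 bind, was searched on both strands. It stood in 6 of the 45 windows (13.3%) and in 12.4% of all 32851 windows. The genes were Psmb5, Psmb6, Psmc6, Psmd9, Psmd12 and Psme4, of which Psmb5, Psmc6 and Psmd12 rose in the Atf3 line, Psmd9 and Psme4 fell and Psmb6 was not called.

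The CCAAT box, CCAAT, stood in 15 member windows (33.3%) and in 37.4% of all windows. The composite element of Atf4 and C/EBP factors, TGATGNAA, stood in 1 (2.22%, Psmd13) and in 3.97% of all. An AP-1-like pattern with its middle base left free, TGANTCA, stood in 2 (4.44%: TGAATCA in Psmb5 and TGAGTCA in Psmd9) and in 7.81% of all. It is looser than the AP-1 site itself. The full cyclic AMP response element, TGACGTCA, stood in none and in 1.79% of all. The core of the interferon-stimulated element, GAAA and GAAA with any 2 bases between, stood in 5 (11.1%: Psmb3, Psmd4, Psmd9, Psme1 and Psmg4) and in 3.44% of all. The motifs can overlap each other, a match is a run of letters and not a bound site, and a missing match says only that the letters are not in the window.

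The windows of 5 genes are shown, read 5′ to 3′ on the gene's strand: Psmb5 and Psme4, which hold matches to the same antioxidant core but went opposite ways, Psmd14 and Psme3, the largest rises of the 19S cap and of the other caps in the Atf3 line, and Psme1, which fell and holds a match to the interferon element. Capitals mark the antioxidant core and AP-1-like match in Psmb5 and the antioxidant core in Psme4. They also mark CCAAT boxes in Psmd14 and Psme3 and the interferon element in Psme1. All are marked in either orientation.
Psmb5 promoter, chr14:54617946-54618245, minus strand: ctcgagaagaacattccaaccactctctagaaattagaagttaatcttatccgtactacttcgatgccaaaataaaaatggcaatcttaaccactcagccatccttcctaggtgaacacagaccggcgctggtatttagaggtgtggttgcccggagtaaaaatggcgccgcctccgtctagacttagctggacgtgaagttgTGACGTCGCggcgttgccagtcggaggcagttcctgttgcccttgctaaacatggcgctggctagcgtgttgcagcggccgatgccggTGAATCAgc
Psme4 promoter, chr11:30771525-30771824, plus strand: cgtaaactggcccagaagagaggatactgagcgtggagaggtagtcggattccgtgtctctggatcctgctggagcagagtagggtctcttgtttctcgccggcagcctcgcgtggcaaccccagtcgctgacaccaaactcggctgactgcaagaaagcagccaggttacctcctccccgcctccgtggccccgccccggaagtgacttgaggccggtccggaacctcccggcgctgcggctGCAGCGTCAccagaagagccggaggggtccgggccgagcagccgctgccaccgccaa
Psmd14 promoter, chr2:61711444-61711743, plus strand: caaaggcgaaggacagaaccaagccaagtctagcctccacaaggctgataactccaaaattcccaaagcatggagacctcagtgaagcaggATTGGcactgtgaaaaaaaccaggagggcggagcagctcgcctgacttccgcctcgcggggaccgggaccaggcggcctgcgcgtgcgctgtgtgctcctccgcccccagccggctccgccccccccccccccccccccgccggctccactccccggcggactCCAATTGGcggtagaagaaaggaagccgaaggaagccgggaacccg
Psme3 promoter, chr11:101315963-101316262, plus strand: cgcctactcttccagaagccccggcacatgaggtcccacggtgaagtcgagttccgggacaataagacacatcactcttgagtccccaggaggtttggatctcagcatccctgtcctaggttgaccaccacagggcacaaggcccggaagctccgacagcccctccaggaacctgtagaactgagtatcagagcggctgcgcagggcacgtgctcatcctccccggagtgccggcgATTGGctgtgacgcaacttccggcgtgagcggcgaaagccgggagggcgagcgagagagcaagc
Psme1 promoter, chr14:55578244-55578543, plus strand: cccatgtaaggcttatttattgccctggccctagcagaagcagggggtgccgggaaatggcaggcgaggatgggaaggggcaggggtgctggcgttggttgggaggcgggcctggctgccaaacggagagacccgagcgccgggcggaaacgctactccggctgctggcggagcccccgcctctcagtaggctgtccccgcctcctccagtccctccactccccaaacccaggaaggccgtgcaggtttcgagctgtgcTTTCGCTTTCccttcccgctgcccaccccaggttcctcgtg

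Genes that work beside the proteasome were taken as 5 lists, with 57 distinct genes, 56 of them tested and Ddi2 in 2 of the lists. In the Atf3 line 37 rose and 6 fell, and with plain totals 28 rose and 12 fell. In the Atf4 line 35 rose and 8 fell, or 33 and 10 with plain totals. The Atf4 line set against the Atf3 line had 3 higher and 29 lower, or 13 and 16 with plain totals. Of all genes of 10 CPM or above, 51.8% were called higher and 31.5% lower for Atf3 against control, 44.0% higher and 29.6% lower for Atf4 against control, and 17.8% higher and 36.4% lower for Atf4 against Atf3, with medians of 0.12, 0.06 and -0.05. The counts of the lists stand beside these shares, and the lists are short.

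Of 11 tested proteasome parts and partners outside the Psm names, 8 rose and 1 fell in the Atf3 line (median 0.33). Pomp, which helps the core to mature, had 0.35 ± 0.04 (adjusted p = 1.1e-07), and Adrm1, a ubiquitin receptor of the cap, had 0.31 ± 0.04 (adjusted p = 1.14e-06). Sem1, a small cap subunit, had 0.06 ± 0.04 (adjusted p = 0.133) and was not called. Usp14, a deubiquitinase that docks on the cap, rose most by p, at 0.75 ± 0.04 (adjusted p = 2.3e-12), with 118 CPM in Atf3 libraries and 70.4 in control libraries. Zfand5, a ubiquitin-binding zinc finger protein, fell, at -0.37 ± 0.03 (adjusted p = 9.15e-09). In the Atf4 line 6 rose and 2 fell, with Pomp at 0.20 ± 0.04 (adjusted p = 0.000145), Adrm1 at 0.08 ± 0.04 (adjusted p = 0.0786), Sem1 at -0.07 ± 0.04 (adjusted p = 0.109) and Zfand5 at -0.35 ± 0.03 (adjusted p = 3.75e-08).

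Among 12 regulators of proteasome genes 8 rose and 1 fell in the Atf3 line (median 0.20). Nfe2l1, the factor that raises proteasome genes when proteasome activity is short, had 0.25 ± 0.03 (adjusted p = 1.9e-06) in the Atf3 line and 0.26 ± 0.03 (adjusted p = 2.72e-06) in the Atf4 line. Its relative Nfe2l2, the main factor of the oxidative stress response, had 0.50 ± 0.03 (adjusted p = 3.07e-11) in the Atf3 line and 0.30 ± 0.03 (adjusted p = 7.86e-08) in the Atf4 line. Bach1, a repressor that binds the same element, fell, at -0.41 ± 0.04 (adjusted p = 2.46e-08) in the Atf3 line and -0.41 ± 0.04 (adjusted p = 4.94e-08) in the Atf4 line. The Atf4 line had 8 rising and 3 falling regulators, Mafk among those that fell at -0.58 ± 0.10 (adjusted p = 7.6e-05), and set against the Atf3 line it had 6 lower and 6 not called, with Fbxw7 at -0.38 ± 0.04 (adjusted p = 1.54e-06). Transcript levels of these factors do not measure their activity, which is largely set at the protein.

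Shuttle factors that carry ubiquitinated proteins to the cap, listed with the unfolding machine Vcp, had 9 of 12 rising and 3 not called in each line (median 0.29 in the Atf3 line, against 0.18 for Atf4). Ubqln4 rose most, at 0.97 ± 0.04 (adjusted p = 3.46e-13) in the Atf3 line and 0.72 ± 0.04 (adjusted p = 4.17e-11) in the Atf4 line. Of 9 ubiquitin and E1 enzyme genes 6 rose and 2 fell in the Atf3 line, and 4 rose and 2 fell in the Atf4 line, with medians of 0.09 for Atf3 and 0.03 for Atf4 that did not exceed those of genes of 10 CPM or above. Uba2 and Sae1, which encode the activating enzyme for SUMO rather than ubiquitin, rose, Uba2 at 0.77 ± 0.03 (adjusted p = 2.54e-13) in the Atf3 line and Sae1 at 0.47 ± 0.03 (adjusted p = 2.55e-10) in the Atf4 line. Set against the Atf3 line, the Atf4 line had Usp14 at -0.35 ± 0.04 (adjusted p = 1.01e-06) and Rps27a, which encodes ubiquitin fused to a ribosomal protein, at -0.30 ± 0.04 (adjusted p = 3.7e-06).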

How the data were processed

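RNA sequencing libraries of 3 lines, 5 each, were analysed. The authors deposited 1 table of whole-number counts per gene, with no normalization. Per the submitters' processing notes, STAR, edgeR and the build mm10 were used; versions, the counting program and the strand setting were not given in the sources used here. Per the labels' protocols, the NEBNext Ultra RNA kit was used, which does not mark strand. Symbols, coordinates and lengths came from GENCODE M21 (GRCm38); 52135 of 55416 identifiers matched.

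Counts were fitted in R 4.3.3 with edgeR 4.0.16: TMM scaling, filterByExpr, all 15 libraries with a coefficient per line, the quasi-likelihood test, and Benjamini-Hochberg adjustment over 18244 genes, called at an adjusted p under 0.05. CPM are divided by TMM-scaled totals, values after ± are SE for log2 fold changes and SD for levels, and the SE was taken from the F statistic. Levels per kilobase use 1 principal transcript per gene. The scripts were tested on simulated counts.

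Alternatives were RLE scaling, plain totals, DESeq2 1.42.0, limma-voom 3.58.1, other filters on low counts, only the 2 lines compared, a replicate block, leaving out libraries and merged exon lengths; plain totals and merged exon lengths were added after seeing the data. Libraries of 1 line differed from each other beyond sampling noise, and labels name no batch. The genes and lists, and the rule for which genes are named (cutting subunits, activators, inhibitor, Psmd14, Psmc3ip, the 3 largest and smallest changes per comparison and leading list members), were chosen with earlier results of these data known. Genes named beside these were chosen after their values were seen. Some genes of the lists are not reported here by name.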

Additional observations from a re-analysis of the deposited data

Results flagged for a closer look

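In each line each tested gene was checked for 1 library standing far from the other 4 in CPM, and 13 of 144 groups were flagged, over 9 genes. Chance flags about 5% of groups. Control replicate 5 stood highest in Psma2 (124 CPM, next 120), Psmb4 (185, next 174), Psmc3 (157, next 149), Psmd8 (153, next 146) and Psmd14 (101, next 95.9). Atf3 replicate 4 stood lowest in Psma2 (130 CPM, next 140) and Psmd14 (130, next 136), and highest in Psmg4 (33.6, next 28.4) and Psmf1 (42.3, next 39.4).

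Atf4 replicate 4 stood lowest in Psmd8 (158 CPM, next 162) and highest in Psmd13 (117, next 114). Atf4 replicate 5 stood lowest in Psmd5 (56.5, next 61.2) and Atf4 replicate 3 highest in Psmg4 (25.9, next 24.5). Averaged over the 48 tested genes, log2 CPM was 6.20 to 6.27 in Atf3 libraries, 6.06 to 6.17 in Atf4 libraries, with replicate 5 lowest, and 5.90 to 6.01 in control libraries, with replicate 5 highest.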

How the results depend on the processing

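Rising and falling counts of proteasome genes kept within 1.5 times the reported count under RLE scaling, DESeq2, limma-voom, both other filters, fits of only the lines compared and fits without control replicates 4 and 5. Leaving out each library in turn gave 36 to 39 rising and 4 falling genes in the Atf3 line, and 31 to 34 rising and 4 falling in the Atf4 line. The Atf4 line set against the Atf3 line then had 2 to 4 higher (4 without Atf4 replicate 5) and 24 to 29 lower, and among related genes 3 to 6 higher (6 without Atf3 replicate 4, 5 without Atf4 replicate 5). Counting each gene in each comparison under each other alternative, 1153 values kept direction and call, 48 lost the call, 11 gained it and 36 changed sign. The cause was not tested for any of these.

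Same-numbered libraries did not pair (correlations of deviations from -0.079 to 0.098). With replicate number as a block, 38 genes rose and 4 fell in the Atf3 line, 33 rose and 4 fell in the Atf4 line, and 2 were higher and 26 lower in the Atf4 line set against the Atf3 line; Psmb9 in the Atf4 line was -0.011 against control.

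With plain totals the Atf4 line set against the Atf3 line had 6 higher and 12 lower proteasome genes and 13 higher and 16 lower related genes, and 12 related genes fell in the Atf3 line. Summed CPM of all 50 genes was then 5236 in Atf3 libraries and 4820 in control libraries, and the Atf3 and Atf4 libraries overlapped in this sum. In the Atf3 line against control it gave Psma1 -0.044, Psmb6 -0.045, Psmd4 -0.026, Psmd10 -0.068 and Psmf1 -0.074. In the Atf4 line against control it gave Psmb9 -0.030, Psmc6 -0.0097 and Psmd10 -0.033. Between the Atf4 and Atf3 lines it gave Psmb1 0.033, Psmb4 0.018, Psmc3 0.057, Psmc4 0.015, Psmd1 0.041, Psmd3 0.021, Psmd4 0.063, Psmd5 0.00035, Psmd8 0.028, Psmd10 0.035, Psmd11 0.028, Psmd13 0.086, Psmf1 0.083 and Psmc3ip 0.080.

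Psmb8 in the Atf3 line was 0.027 without control replicates 4 and 5. In the Atf4 line against control, Psmb9 was -5.2e-05 with DESeq2, -0.0090 with limma-voom and -0.028 with at least 1 CPM in 5 libraries; Psmc6 was -0.0070 with that filter; and Psmd10 was -0.0026 with RLE scaling and with DESeq2, -0.030 with that filter and -0.00068 with only these lines fitted. Between the Atf4 and Atf3 lines, the same filter gave Psmd13 0.011, Psmf1 0.0082 and Psmc3ip 0.0053, and fitting only these lines gave Psmd13 0.00075.

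Signs that changed with 1 library left out were those of Psmb8 in the Atf3 line against control (-0.27 to 0.076), of Psmb9 (-0.090 to 0.10), Psmd10 (-0.035 to 0.021), Psme2 (-0.0025 to 0.051) and Psme2b (-0.090 to 0.00089) in the Atf4 line against control, and of Psmd13 (-0.045 to 0.00044), Psmf1 (-0.033 to 0.0046) and Psmc3ip (-0.041 to 0.0022) between the Atf4 and Atf3 lines. With merged exon lengths Psmb8 was 0.190, 0.252 and 0.271% of Psmb5 in Atf3, Atf4 and control libraries, Psmb9 1.86% of Psmb6 in Atf3 and 2.69% in control libraries, and Psmb10 36.7, 29.0 and 22.6% of Psmb7 in Atf3, Atf4 and control libraries. In libraries of 53.7 M counts or more, Psma8 and Psmb11 had too few counts to be tested, and Psmb8 had the widest intervals.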

Other observations

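The list of antigen presentation genes, which holds interferon-controlled genes and general folding proteins of the endoplasmic reticulum (Canx, Calr, Pdia3), was mixed. Of 13 tested, 7 rose and 2 fell in the Atf3 line (median 0.19), and 9 rose and 1 fell in the Atf4 line (median 0.21). Of all genes of 10 CPM or above 51.8% were called higher and 31.5% lower in the Atf3 line, and 44.0% and 29.6% in the Atf4 line. The rises in the Atf3 line included Canx, a folding chaperone of the endoplasmic reticulum, at 0.57 ± 0.03 (adjusted p = 7.18e-12) and Erap1, a peptide-trimming protease, at 0.57 ± 0.05 (adjusted p = 8.95e-09). Tapbp, which loads peptide onto class I molecules, fell, at -0.35 ± 0.06 (adjusted p = 1.75e-05) in the Atf3 line and -0.21 ± 0.06 (adjusted p = 0.00271) in the Atf4 line.

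The Atf4 line set against the Atf3 line had 3 of these 13 genes higher and 2 lower. Over all genes tested 19.7% were higher and 23.9% lower, and of genes of 10 CPM or above 17.8% and 36.4%. The number higher is near these shares and the number lower is below them, on only 13 genes. Those higher were H2-D1, a class I heavy chain, at 0.37 ± 0.05 (adjusted p = 5.14e-06), H2-K1 at 0.32 ± 0.04 (adjusted p = 9.5e-06) and B2m, the class I light chain, at 0.15 ± 0.04 (adjusted p = 0.00689). Those lower were Canx at -0.18 ± 0.03 (adjusted p = 0.000118) and Pdia3 at -0.10 ± 0.03 (adjusted p = 0.0203). H2-D1 averaged 77.4 CPM in Atf4 libraries and 59.9 in Atf3 libraries. H2-K1 averaged 27.0 CPM in Atf4 libraries and 21.7 in Atf3 libraries.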
